A study of Mus musculus with 8 samples.

Results

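This account covers 10 genes of the cyclin-dependent kinase (CDK) inhibitor and p53 pathway. They were measured in mouse liver cells, which the study describes as endothelial cells (ECs), with and without the endocytic receptor LRP1. The members were chosen by symbol from a list, with no measured value in the rule, but with earlier results of these data known. All 10 were found among the 22520 protein-coding genes of the deposited table. They are 5 CDK inhibitors (Cdkn1a, Cdkn1b, Cdkn2a, Cdkn2b and Cdkn2c) and 5 genes of the p53 group (Trp53, Mdm2, Ccng1, Trp53inp1 and Bax). The design sets 4 LRP1 eKO libraries against 4 WT libraries. Both genotypes carried the floxed receptor gene, as LRP1 f/f; Cdh5-CreER+/- in LRP1 eKO mice and LRP1 f/f; Cdh5-CreER-/- in their WT littermates. The Cre recombinase is driven by the promoter of Cdh5, an endothelial cadherin, and needs an inducing drug, whose schedule for these mice is not given in the sources used here. CreER was present in LRP1 eKO mice only, and effects of CreER cannot be told apart from those of losing LRP1. The labels give the strain as C57BL/6, the age as postnatal day 14 and the cells as liver microvesicular cells, and the study's methods describe microvascular ECs isolated with beads against PECAM-1. Nothing states whether each library came from a separate mouse, so p-values measure the spread between these libraries, which may be technical.

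CDK inhibitors are small proteins that hold the cell division cycle in check. The Ink4 proteins (encoded by Cdkn2a, Cdkn2b and Cdkn2c) bind CDK4 and CDK6 and keep cyclin D from activating them, while p21 (Cdkn1a) and p27 (Cdkn1b) bind cyclin-CDK complexes more broadly. The transcription factor p53, encoded by Trp53, accumulates after DNA damage and other stress and switches on Cdkn1a, its own ubiquitin ligase gene Mdm2, Ccng1, Trp53inp1 and Bax. Much of p53 regulation acts on the protein, which was not measured here. In ECs these genes are known for their part in growth arrest, senescence and vessel remodelling.

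In LRP1 eKO libraries, 3 of the 4 p53 targets of the p53 group rose, led by Mdm2 at 1.79 times its WT mean, and the p53 target Cdkn1a rose to 1.24 times. Of the other CDK inhibitors, Cdkn1b, Cdkn2a and Cdkn2c fell, and Cdkn2c reached 57.6% of its WT mean. Trp53, Bax and Cdkn2b did not pass the test. Other p53 targets, listed by function, were split. Those of arrest, repair and metabolism had 6 higher, 6 lower and 12 not called. Those of cell death had 2 higher, 1 lower and 7 not called. In all, 4 members were higher and 3 lower at an adjusted p under 0.05 in limma, a linear model fitted to every gene with adjustment by Benjamini and Hochberg. Of all 11391 genes tested, 41.2% passed in either direction, 19.0% as higher and 22.2% as lower. Among the members 0 passed the study's additional threshold of a 2-fold change, which 1.66% of all genes passed, and 2 (Mdm2 and Cdkn2c) passed a 1.5-fold change, which 6.36% passed. At an unadjusted p under 0.05, 8 of the 10 passed in limma, beside 50.6% of all genes tested.

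Values are the deposited signal, which the authors made comparable between libraries by quantile normalization, so that each library summed to between 484445 and 485947. The unit before that step and the depth of the libraries are not given in the sources used here, so each gene was compared between libraries and levels were not compared between genes. Fold changes are differences of the mean log2(signal + 1), LRP1 eKO minus WT, and understate the change of low signals. Lrp1 itself, on chromosome 10 of GRCm38 from 127538161 to 127621148, was at 6.74% of its WT mean. The defining endothelial markers were low: Pecam1 ranged from 1.53 to 3.85 and Cdh5 from 1.26 to 4.99 over the 8 libraries, where a signal of at least 1 in 4 libraries was needed for testing. The summed signal of 10 endothelial markers was 23.2 to 31.8 in WT and 35.9 to 56.4 in LRP1 eKO libraries, with 2 of 7 tested genes higher and Eng the highest of the list. Of these markers, Eng alone did not overlap between genotypes (11.0 to 13.8 in WT and 19.7 to 27.5 in LRP1 eKO libraries). The summed signal of 9 skeletal muscle markers was 48.1 to 76.1 in WT and 14.7 to 16.2 in LRP1 eKO libraries, with 6 of 6 tested genes lower and Actn3 the highest. Summed signals of 13 macrophage and Kupffer cell markers spanned 113 to 223 in WT libraries, with 1 of 9 tested genes higher and Lyz2 the highest. They were 736, 52.8, 673 and 394 in LRP1 eKO replicates 1 to 4, so that all but replicate 2 lay above every WT sum. The sums of 10 stellate cell and fibroblast markers spanned 2001 to 2312 in WT and 1757 to 2213 in LRP1 eKO libraries, with 2 of 7 tested genes lower and Col1a2 the highest. Of 10 lymphocyte markers, 5 were listed at 0 in every library. Of 5 tested hepatocyte markers, 4 fell, with no overlap between genotypes: Alb to 29.6%, Apoa1 to 42.4%, Serpina1a to 17.5% and Fgb to 26.9% of the WT mean, while Ass1, the highest of the list, rose to 152%. The hepatocyte sums, 157 to 180 in WT and 155 to 173 in LRP1 eKO libraries, overlapped. So did the sums of bile duct markers (301 to 356 and 233 to 696, with 1 of 3 tested genes lower) and of erythroid markers (24.6 to 46.2 and 14.6 to 24.7, with 1 of 1 lower). The bile duct sums, too, were above every WT sum in all LRP1 eKO libraries but replicate 2. In such bulk samples, fewer cells of a type and less RNA per cell cannot be told apart. The endothelial and muscle sums and the 5 tested hepatocyte markers separated the genotypes, as did the 7 members that passed the test. The part of these cell types, and of macrophages, in the members' differences was not tested. WT replicate 4 lay farthest from the WT median for 61.7% of all genes, and LRP1 eKO replicate 2 lay farthest from its group's median for 37.2%, so results that rest on them are also given without both.

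**Figure D1:**
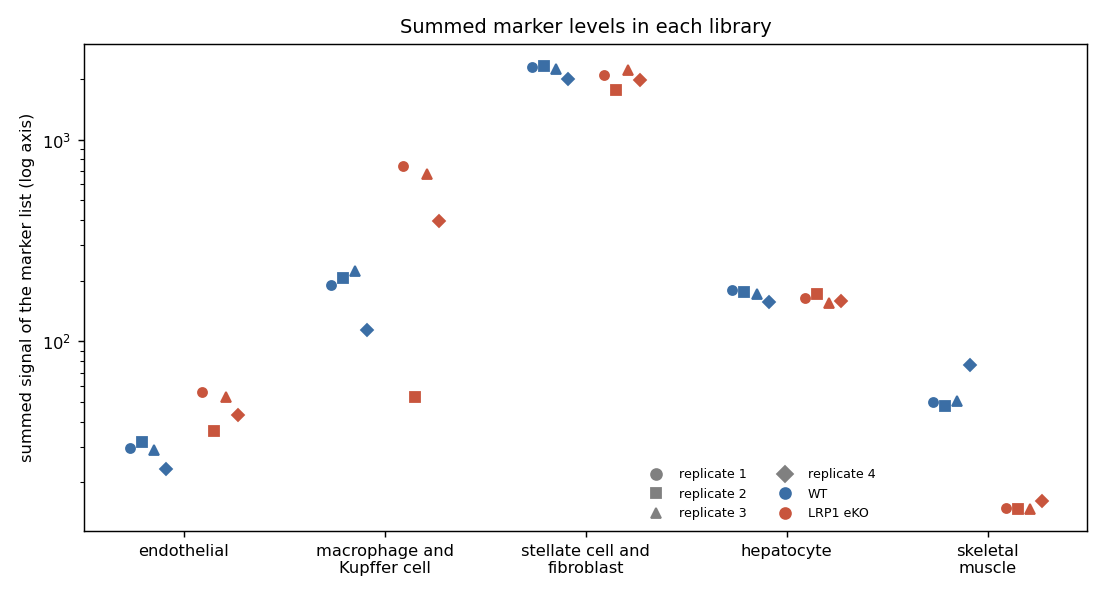
Summed signal of the marker genes of each cell type (y axis, log scale, deposited signal) in each of the 4 WT and 4 LRP1 eKO libraries (points). The endothelial sums of LRP1 eKO libraries, 35.9 to 56.4, sit above all WT sums, and the skeletal muscle sums, 14.7 to 16.2, sit below them. LRP1 eKO replicate 2 has the lowest macrophage sum, 52.8, and the other LRP1 eKO libraries have macrophage sums above all WT sums. Of the endothelial markers, Eng alone did not overlap between genotypes.

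The sequence upstream of 3 members that rose is shown because p53 is known to bind DNA through a pair of 10-base consensus elements. RefSeq start windows on GRCm38.p6 were found for 9 of the 10 members (12 windows, since some genes have several starts), and Trp53inp1 had no entry. Both strands of the 250 bases before each start were searched for a pair of p53 consensus decamers with no spacer and at most 1 mismatch. This match was present in 25 of 32851 windows of all genes (0.0761%), and 2 of them belong to Cdkn1a and Ccng1. An exact single decamer, which can lie inside such a pair, was present in 2341 windows (7.13%). Among them were that of Mdm2, which rose, and those of Trp53 and Bax, which were not called and are not printed. Sequence outside the windows was not searched. In the lines that follow, written 5′ to 3′ on the strand of the gene, capitals mark the pair in Cdkn1a and Ccng1 and the single exact decamer in Mdm2.
Cdkn1a, chr17:29090729-29090978, plus strand: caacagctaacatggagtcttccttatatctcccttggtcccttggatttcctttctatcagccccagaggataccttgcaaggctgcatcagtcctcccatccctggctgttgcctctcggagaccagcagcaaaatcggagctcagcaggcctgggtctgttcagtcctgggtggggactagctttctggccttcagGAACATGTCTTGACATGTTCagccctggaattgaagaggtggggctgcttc
Ccng1, chr11:40755287-40755536, minus strand: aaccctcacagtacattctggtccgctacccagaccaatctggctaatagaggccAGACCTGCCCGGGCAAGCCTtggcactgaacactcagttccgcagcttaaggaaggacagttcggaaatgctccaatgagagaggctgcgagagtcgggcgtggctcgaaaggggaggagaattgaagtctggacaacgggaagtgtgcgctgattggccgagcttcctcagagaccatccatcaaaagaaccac
Mdm2, chr10:117710759-117711008, minus strand: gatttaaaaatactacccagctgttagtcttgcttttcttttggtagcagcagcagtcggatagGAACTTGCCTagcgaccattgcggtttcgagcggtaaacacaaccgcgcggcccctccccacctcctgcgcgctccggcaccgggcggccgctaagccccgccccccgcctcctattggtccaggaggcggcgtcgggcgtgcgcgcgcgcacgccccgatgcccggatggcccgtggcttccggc
The pair lay 51 to 32 bases before the upstream start of Cdkn1a and 195 to 176 bases before that of Ccng1, each with 1 mismatch, and the Mdm2 decamer was found 186 to 177 bases before the start. The window of another Cdkn1a start held no such match. A match of letters is a description of these windows, and binding was not measured. The members' windows held no match to TTTCGCGC or TTTGGCGC on either strand, which 0.256% and 0.417% of all windows hold. These are among the letters bound by the E2F factors that Rb proteins restrain. With shares this low over all windows, no match in the members' 12 windows was the likely outcome, so this absence cannot bear on E2F control. Other spellings were not searched, and the Cdkn2a window at chr4:89294620-89294869 holds TTTCCCGC.

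Among the CDK inhibitors, Cdkn1a encodes p21, which stops cycling when p53 is active. It lies on chromosome 17 of GRCm38 from 29090976 to 29100727, plus strand. Its signal was 234, 241, 214 and 205 in WT replicates 1 to 4 and 278, 270, 291 and 269 in LRP1 eKO replicates 1 to 4. Every LRP1 eKO library was above every WT library. The mean rose from 223 ± 16.7 (SD, n = 4) to 277 ± 10.3 (SD, n = 4), a log2 fold change of 0.31 (standard error 0.057, 95% interval 0.18 to 0.44, adjusted p = 0.0022, limma). A predicted antisense transcript overlaps 7.68% of its exonic bases, and whether counting used strand is not given in the sources used here.

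Cdkn1b encodes p27, which holds resting cells out of division and is also known as a target of FoxO transcription factors. Its gene is on chromosome 6 from 134920401 to 134925513. WT signals of 12.8, 13.2, 13.4 and 13.2 stood against 10.7, 9.12, 9.36 and 9.82 in LRP1 eKO libraries. The WT values were nearly alike and all of them were above the LRP1 eKO values, of which replicate 1 was the highest. Cdkn1b fell by 0.40 on the log2 scale (standard error 0.056, 95% interval -0.53 to -0.28, adjusted p = 0.00045, limma), from 13.2 ± 0.269 to 9.74 ± 0.678 (SD, n = 4 each). Thus the 2 inhibitors of the Cip/Kip class among the members changed in opposite directions.

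Cdkn2a and Cdkn2b are neighbors on chromosome 4, at 89274471 to 89294653 and 89306299 to 89311039, both on the minus strand. Cdkn2a encodes p16Ink4a and, through another first exon, p19Arf, which restrains Mdm2 and so protects p53. The annotated transcripts of these proteins span 852 and 895 exonic bases and share 575 of them (67.5% and 64.2%), and the table has 1 value per gene, so that p16Ink4a and p19Arf cannot be told apart. The Cdkn2a signal was 47.5, 44.5, 43.1 and 43.8 in WT libraries and 27.4, 34.1, 28.4 and 30.9 in LRP1 eKO libraries. The genotypes did not overlap, and LRP1 eKO replicate 2 was the nearest to WT. Cdkn2a fell from 44.7 ± 1.98 to 30.2 ± 2.98 (SD, n = 4 each), and its log2 fold change was -0.56 (standard error 0.068, 95% interval -0.71 to -0.40, adjusted p = 0.00022, limma). Cdkn2b, which encodes p15Ink4b, was at 41.8, 40.8, 38.7 and 41.6 in WT and 38.3, 40.6, 36.1 and 37.7 in LRP1 eKO libraries. These ranges overlapped, and the log2 fold change of -0.09 had a 95% interval of -0.20 to 0.02 (adjusted p = 0.15, limma). The exact two-sided permutation test gave p = 0.057, where 4 libraries against 4 can go no lower than 0.029.

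Cdkn2c, on chromosome 4 from 109660876 to 109667189, encodes p18Ink4c and showed the largest decrease of the 10 members. Its signal was 9.40, 10.4, 10.6 and 11.0 in WT and 6.23, 6.00, 5.81 and 5.82 in LRP1 eKO libraries. The LRP1 eKO values were close together and far below every WT value. The mean fell from 10.4 ± 0.681 to 5.96 ± 0.196 (SD, n = 4 each), which is a log2 fold change of -0.70 (standard error 0.058, 95% interval -0.83 to -0.57, adjusted p = 1.7e-05, limma). Of all genes tested, 2.16% had a lower log2 fold change. The log2 ratio of its mean signals with no pseudocount was -0.80, since adding 1 understates the change of a signal at this level.

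**Figure D2:**
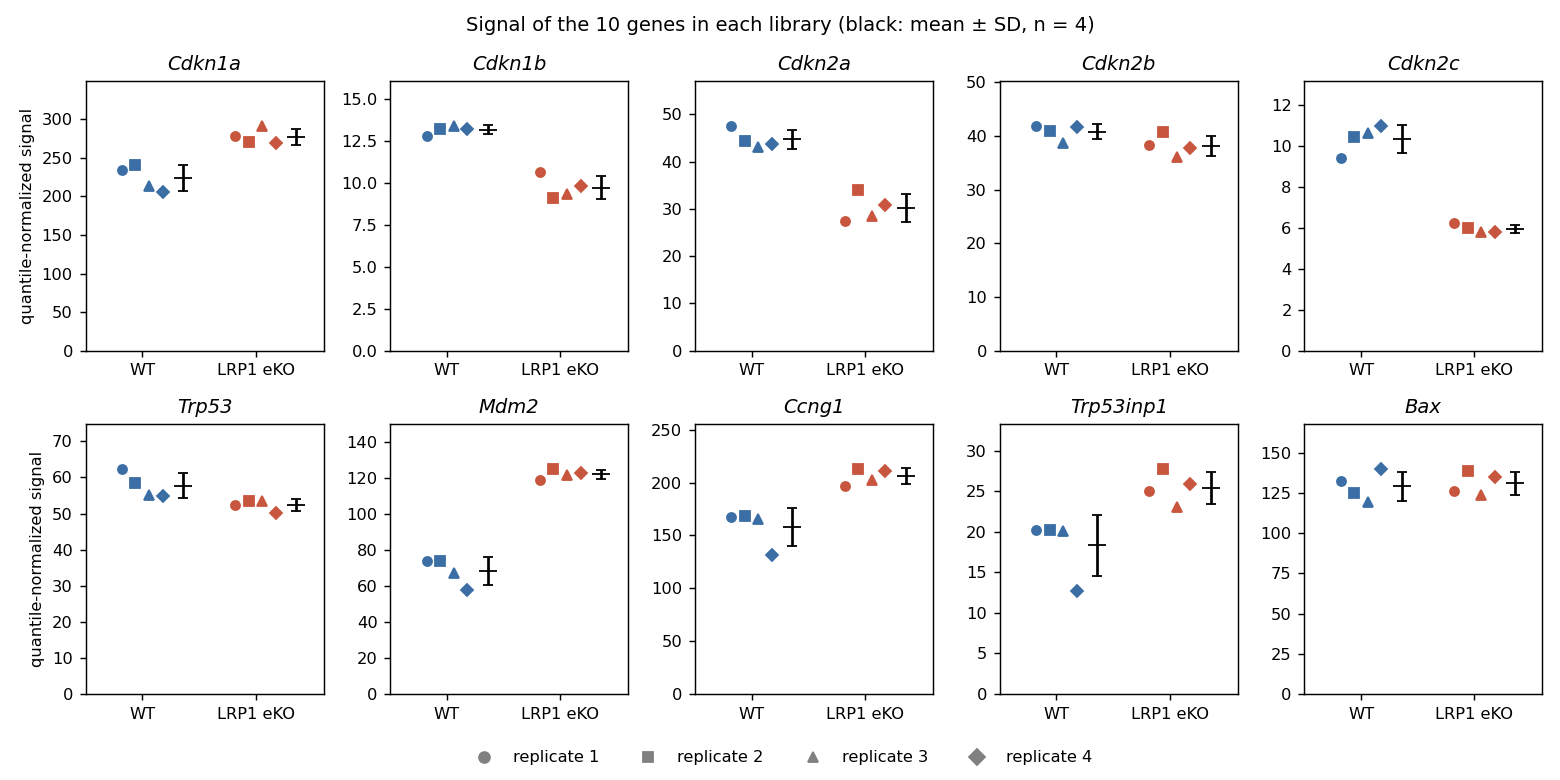
Deposited signal (y axis, from 0 in each panel) of the 10 members in each WT and LRP1 eKO library (points), with the group mean and SD (n = 4 each). Mdm2 lies between 57.7 and 74.1 in WT and between 119 and 125 in LRP1 eKO libraries, Cdkn2c was lower in every LRP1 eKO library, and the values of Bax and Cdkn2b overlapped; WT replicate 4 was the lowest for Ccng1 and Trp53inp1.

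Trp53, the gene of p53 itself, is on chromosome 11 from 69580359 to 69591873. Its signal was 62.3, 58.4, 55.2 and 54.9 in WT libraries and 52.3, 53.3, 53.6 and 50.1 in LRP1 eKO libraries. All LRP1 eKO values lay under the WT values, by a small margin at the nearest pair. The log2 fold change was -0.14 (95% interval -0.25 to -0.02), and the limma p of 0.022 became 0.053 after adjustment, so that Trp53 was not called. Without WT replicate 4 its log2 fold change was -0.16 and its adjusted p 0.024 in limma.

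Mdm2 encodes the ubiquitin ligase that marks p53 for degradation and is transcribed under p53, as a feedback loop. The gene lies on chromosome 10 from 117688875 to 117710758, minus strand. In WT libraries its signal was 73.7, 74.1, 67.3 and 57.7, and in LRP1 eKO libraries 119, 125, 122 and 123. The LRP1 eKO values formed a narrow band above all WT values, of which replicate 4 was the lowest. Its mean rose from 68.2 ± 7.67 to 122 ± 2.56 (SD, n = 4 each), which is a log2 fold change of 0.84 (standard error 0.074, 95% interval 0.67 to 1.00, adjusted p = 2.6e-05, limma). Mdm2 ranked 188 from the highest of the 11391 log2 fold changes, and without WT replicate 4 and LRP1 eKO replicate 2 its value was 0.75.

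Ccng1 encodes cyclin G1, a p53 target that recruits a phosphatase to Mdm2, and lies on chromosome 11 from 40748552 to 40755311. The signal was 168, 168, 166 and 132 in WT and 197, 213, 203 and 211 in LRP1 eKO libraries. WT replicate 4 stood apart as the lowest, and the highest WT value was still under the lowest LRP1 eKO value. Ccng1 rose by 0.38 on the log2 scale (standard error 0.078, 95% interval 0.21 to 0.56, adjusted p = 0.0037, limma), and by 0.28 without WT replicate 4 and LRP1 eKO replicate 2 (adjusted p = 0.00037, limma).

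Trp53inp1 encodes a stress protein that promotes p53 phosphorylation and autophagy, and lies on chromosome 4 from 11156431 to 11174379. WT libraries had 20.2, 20.3, 20.0 and 12.7, and LRP1 eKO libraries 25.1, 27.7, 23.0 and 25.9. Again WT replicate 4 was far below the other WT libraries, and the genotypes did not overlap. The log2 fold change was 0.47 (standard error 0.13, 95% interval 0.17 to 0.77, adjusted p = 0.019, limma). It was 0.32 without WT replicate 4 and 0.27 without that library and LRP1 eKO replicate 2 (adjusted p = 0.0028 and 0.0023, limma), so the size of this increase rested in part on these libraries.

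Bax encodes a protein that opens the outer mitochondrial membrane in apoptosis, and lies on chromosome 7 from 45461697 to 45466898. Its signal was 133, 125, 119 and 140 in WT and 126, 138, 124 and 135 in LRP1 eKO libraries. The groups were interleaved. The log2 fold change of 0.02 had a 95% interval of -0.11 to 0.15 (adjusted p = 0.80, limma), and its sign changed when single libraries were left out. An annotated gene on the same strand shares 12.2% of its exonic bases.

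**Figure D3:**
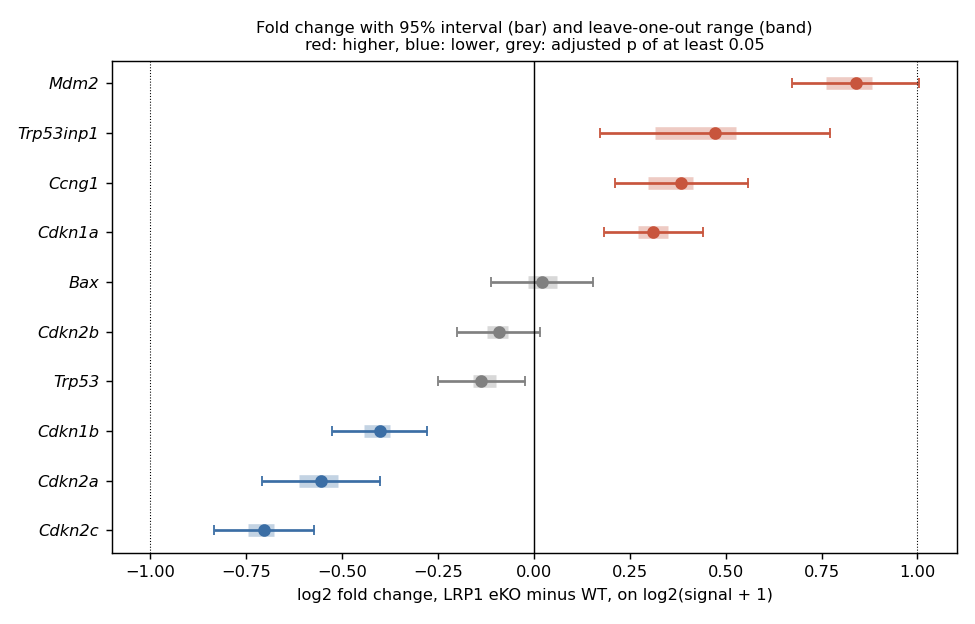
Log2 fold change of each member (x axis, LRP1 eKO minus WT on log2(signal + 1)) with its 95% interval from limma, colored by whether the adjusted p was under 0.05. Mdm2, at 0.84, and Cdkn2c, at -0.70, lie at the ends, and the intervals of Bax and Cdkn2b cross 0.

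Set beside all genes, the members' changes were larger in size at the median and divided in direction. Their median absolute log2 fold change was 0.39, against 0.17 over all genes tested. The signal levels differ, since all 10 members but only 8318 of the 11391 genes had a mean signal of at least 5. Adding 1 understates the change of low signals. Of the members, 7 of 10 were called, beside 41.2% of all genes tested. The median was -0.40 over the 5 CDK inhibitors and 0.38 over the 5 genes of the p53 group, while that of all genes was -0.0095. Groups did not overlap for 4 members that were higher and 4 that were lower in LRP1 eKO libraries, where 20.0% and 22.5% of all genes, 42.6% together, showed this. Trp53 was the member whose groups did not overlap without a call. The members were picked by name with earlier results of these data known, and these counts and medians describe them without a test of the list.

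**Figure D4:**
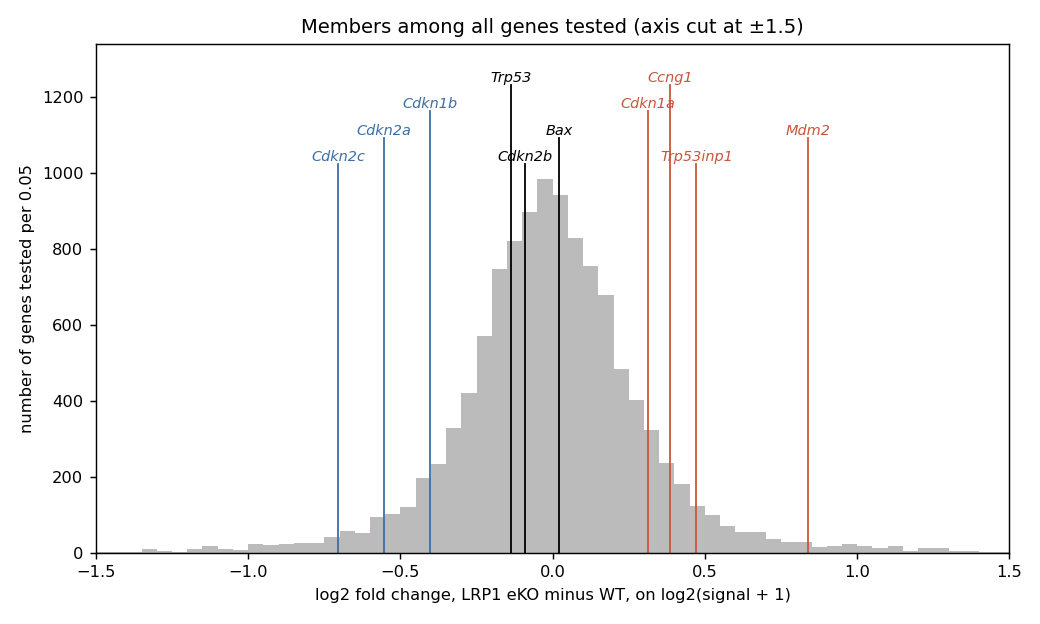
Number of genes (y axis) by log2 fold change (x axis, LRP1 eKO minus WT, bins of 0.05) for the 11391 genes tested, with the 10 members marked; 55 genes lie outside the plotted range of 1.5 in either direction. Mdm2 lies above 98.3% of genes and Cdkn2c above 2.16%.

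The other genes of the pathway were taken from lists by function. Of 79 listed genes, 78 were in the table and 73 were tested, of which 17 were higher, 18 lower and 38 not called, with 0 past 2-fold. Their shares stand near those of all genes, 19.0% higher and 22.2% lower. The count past 2-fold depends on the 1 added to the signal. Ccna2 and Cdkn3 were at 47.5% and 48.6% of their WT means. With a pseudocount of 0.1 their log2 fold changes were -1.07 and -1.03.

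Of the other CDK inhibitors, 2 of 3 fell and 0 rose. Cdkn2d, which encodes p19Ink4d, had 14.2 to 16.4 in WT and 9.34 to 10.6 in LRP1 eKO libraries, a log2 fold change of -0.54 (adjusted p = 0.00011, limma). Cdkn3, which encodes a phosphatase that acts on CDK2, had 9.14 to 10.7 and 4.23 to 5.32, a log2 fold change of -0.91 (adjusted p = 2.9e-05, limma). Cdkn1c, the imprinted gene of p57, overlapped between genotypes at 3.24 to 5.53 and 2.60 to 3.57 (log2 fold change -0.27, adjusted p = 0.14, limma), and its log2 fold change was -0.14 without WT replicate 4. Hence all 3 tested Ink4 genes other than Cdkn2b were lower in every LRP1 eKO library, and among the genes of the Cip/Kip class Cdkn1a was higher, Cdkn1b lower and Cdkn1c not called.

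Of 11 kinases, cyclins and Rb proteins on which the inhibitors act, 3 rose, 4 fell and 4 were not called. Of the D cyclins, whose kinases the Ink4 proteins inhibit, Ccnd1 and Ccnd2 rose, and Ccnd3 overlapped between genotypes (log2 fold change 0.10, adjusted p = 0.19, limma). Ccnd2 had 27.1 to 40.9 in WT and 67.6 to 73.6 in LRP1 eKO libraries, a log2 fold change of 0.95 (adjusted p = 0.00018, limma). Ccnd1 had 14.1 to 17.8 and 29.6 to 30.6, a log2 fold change of 0.81 (adjusted p = 2.6e-05, limma). Their kinase partners moved apart: Cdk4 fell from 416 ± 28.0 to 299 ± 8.10 (SD, n = 4 each), which is a log2 fold change of -0.47, whereas Cdk6 rose from 4.35 ± 1.15 to 6.28 ± 0.304, a log2 fold change of 0.47 (adjusted p = 0.00011 and 0.024, limma). Of the later-acting genes, Ccna2 (cyclin A2, of S phase and beyond), Ccne2 (cyclin E2, of S phase entry) and their kinase Cdk2 fell, with log2 fold changes of -0.997, -0.35 and -0.29. Ccne1, the other E cyclin, overlapped between genotypes (log2 fold change -0.12, adjusted p = 0.10, limma). Ccnd3 and Ccne1 were named after their values were seen. The call on Cdk6 was lost without WT replicate 1 (adjusted p = 0.051 in limma) or LRP1 eKO replicate 4 (0.055), its value was 0.29 without WT replicate 4 and LRP1 eKO replicate 2, and the call on Ccne2 was lost without WT replicate 2 (0.0501) or WT replicate 3 (0.054).

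Among 17 regulators of p53, 15 were tested, of which 3 rose, 3 fell and 9 were not called. Mdm4, the partner of Mdm2 that blocks p53 activity, rose by 0.39 on the log2 scale, from 6.47 ± 1.02 to 8.70 ± 0.512 (SD, n = 4 each, adjusted p = 0.012, limma). Hipk2, a kinase that phosphorylates p53, had a log2 fold change of 0.61 (adjusted p = 0.039, limma), which was 0.38 without WT replicate 4 and lost its call without WT replicate 1 or any single LRP1 eKO replicate (adjusted p between 0.061 and 0.092). Rfwd2, another ubiquitin ligase of p53, was at the threshold with a log2 fold change of 0.11 and an adjusted p of 0.0496 in limma, and lost its call without any 1 library other than WT replicate 4 (adjusted p between 0.082 and 0.11), and also under 6 other settings (between 0.051 and 0.12). Those that fell were the checkpoint kinases Chek2 (log2 fold change -0.53) and Chek1 (-0.48), which signal DNA damage to p53, and the ubiquitin ligase gene Rchy1 (-0.26), with limma adjusted p of 0.0004, 0.00051 and 0.0018.

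Other p53 targets that act in arrest, repair and metabolism were divided, with 6 higher, 6 lower and 12 not called of 24. Some of these calls depended on the processing. Of the higher genes, Ptprv lost its call under 13 of 17 alternatives and Gdf15 under 8 of 17. Of the lower genes, Gadd45a lost its call under 10 of 18 and Gtse1 under 4 of 18. These 4 genes were named after their values were seen. Plk2, a stress-induced kinase, rose from 45.9 ± 1.58 to 59.8 ± 1.30 (SD, n = 4 each), which is a log2 fold change of 0.37 (adjusted p = 0.00011, limma). Rrm2b, a ribonucleotide reductase subunit used in DNA repair, rose by 0.46, Rap2b, a small GTPase, by 0.29, and Zmat3, an RNA-binding protein, by 0.22 on the log2 scale. On the other side, Sesn1, an antioxidant regulator of mTORC1, went from 28.3 ± 0.855 to 14.7 ± 1.19, a log2 fold change of -0.90 (adjusted p = 4.2e-06, limma). Ddit4, also an inhibitor of mTORC1, had a log2 fold change of -0.54, Ccng2, the relative of Ccng1, -0.32, and Btg2, an antiproliferative gene, -0.29, the last with overlap between the genotypes. Sesn1 and Ccng2, like Cdkn1b, are also known as FoxO targets. So are Cdkn1a, which rose, and Bcl2l11 of the Bcl-2 family, which was not called (log2 fold change -0.09, adjusted p = 0.56, limma). Bcl2l11 was named after its value was seen, and FoxO activity was not tested. The cyclin G pair thus moved in opposite directions, with Ccng1 higher and Ccng2 lower in every LRP1 eKO library.

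Of 10 p53 targets that act in cell death, 2 were higher, 1 was lower and 7 were not called. Perp, a membrane protein gene, had a log2 fold change of 0.24 (adjusted p = 0.017, limma), and lost its call without LRP1 eKO replicate 4 (0.051). Aen, which encodes a nuclease, had 0.15 (adjusted p = 0.029, limma), and lost its call without any one of WT replicates 2 and 3 and LRP1 eKO replicates 2 and 4 (adjusted p between 0.068 and 0.077). Siva1, a pro-apoptotic gene, had -0.26 (adjusted p = 0.0082, limma). The death genes Bbc3, Pmaip1 and Fas, named after their values were seen, had log2 fold changes of 0.11, -0.04 and 0.18 and adjusted p of 0.34, 0.71 and 0.057 in limma, and Fas passed without WT replicate 4 (0.22, adjusted p = 0.017).

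In the Bcl-2 family around Bax, 10 of 13 genes were tested, of which 3 rose, 2 fell and 5 were not called. The survival genes Bcl2l2 and Bcl2l1, which encode Bcl-w and Bcl-xL, rose, with log2 fold changes of 0.29 and 0.21 (adjusted p = 0.0058 and 0.0065, limma), and so did Bak1, the pore-forming relative of Bax, by 0.24 (adjusted p = 0.017, limma). Bad and Bmf, which encode proteins that antagonize the survival members, fell, with log2 fold changes of -0.28 and -0.51 (adjusted p = 0.0039 and 0.0068, limma). Bcl2a1b, named after its value was seen, had the largest log2 fold change of the pathway lists, 1.09, without a call (adjusted p = 0.15, limma). Its signal was 2.30 to 3.61 in WT libraries and 17.1, 1.06, 14.2 and 7.32 in LRP1 eKO replicates 1 to 4. Without LRP1 eKO replicate 2 its log2 fold change was 1.76 (adjusted p = 0.00068, limma).

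**Figure D5:**
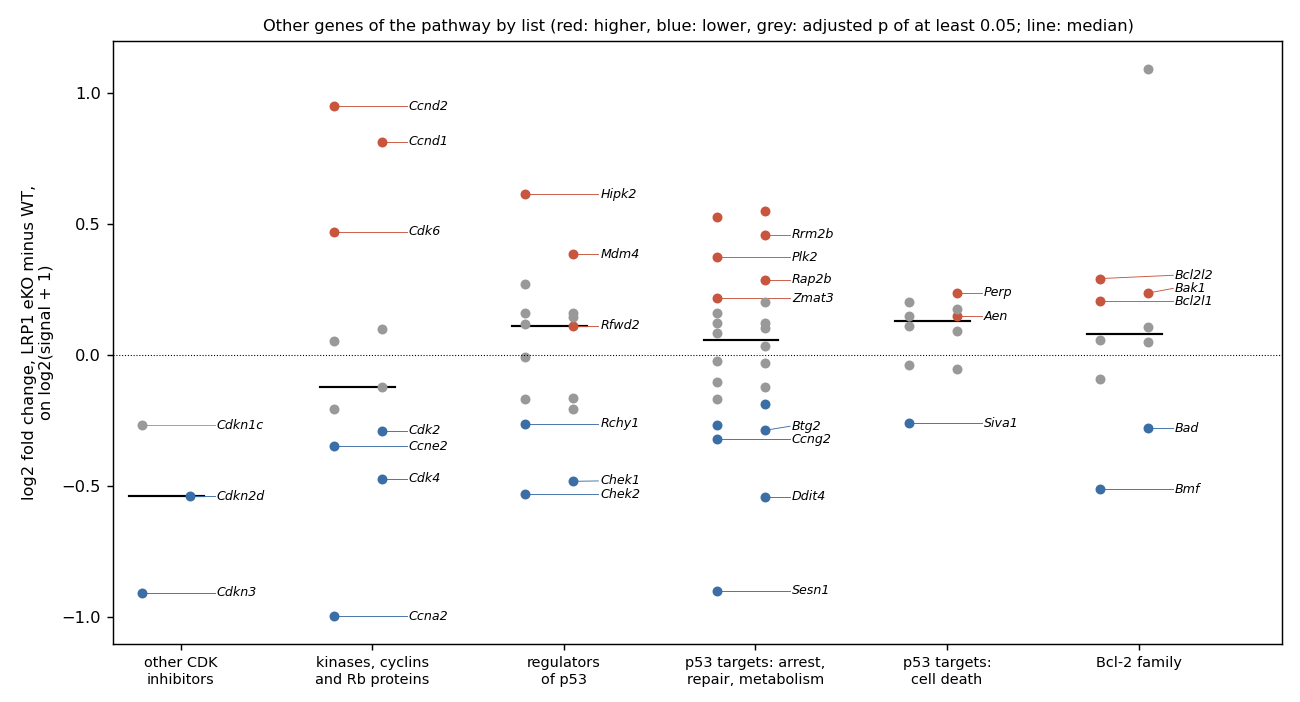
Log2 fold change (y axis, LRP1 eKO minus WT on log2(signal + 1)) of the 73 other pathway genes tested, by list, with the list median as a line and colors for genes higher, lower or not called at an adjusted p under 0.05. Genes of both directions appear in each list but that of the other CDK inhibitors, where the called genes, Cdkn2d and Cdkn3, are lower. The uncalled gene at the top of the Bcl-2 family is Bcl2a1b, which overlapped between genotypes through LRP1 eKO replicate 2.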

How the data were processed

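mRNA of the liver cells, which the study describes as ECs, was sequenced by the authors from TruSeq libraries. The deposited signal of 22520 genes is quantile-normalized, and its depth and earlier unit are unknown. The study's methods name trimGalore, STAR, featureCounts, GENCODE and edgeR, whereas the submitters' processing notes name TopHat2, Cufflinks and mm10, and which of them made this table is not given in the sources used here. Quantile normalization removes any global shift between libraries. Columns were assigned to genotypes by the labels.

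From the signal, log2(signal + 1) was fitted by limma (version 3.58.1, R 4.3.3) with genotype as the term and a mean-variance trend. The fit took in the 11391 genes that reached a signal of 1 in 4 or more libraries, and the calculation was tested on simulated data. A call was a Benjamini-Hochberg adjusted p under 0.05. The exact permutation test used all 70 splits. Positions came from GENCODE M21 on GRCm38, and windows from RefSeq. Plots were made in Python 3.11.15 (matplotlib 3.10.9).

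Members and lists were chosen with earlier results of these data known. Named were all members, every other CDK inhibitor and, per list, up to 4 called genes in each direction with the smallest adjusted p. For marker lists whose sum separated the groups or moved with a library that stood apart, the gene with the highest mean was named. Pecam1 and Cdh5 were named beside these as defining endothelial markers, and Alb, Apoa1, Serpina1a and Fgb after their values were seen. Of the listed genes, Rb1 was not analysed here. Each choice was varied in turn, as a pseudocount of 0.1 or 5, the filter removed or set to a mean signal of 5, robust limma moderation, limma with no trend, array weights, libraries centred on a mean trimmed by 30% at both ends, a block for the replicate number, a 1.5-fold threshold, a ratio of arithmetic means, and leaving out each library or WT replicate 4 and LRP1 eKO replicate 2 together.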

Additional observations from a re-analysis of the deposited data

Results flagged for a closer look

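In a group of 4 libraries, a library was singled out where its gap to the nearest other took up more of the group's range than Dixon's 95% critical value. This was examined in 86 groups, the WT and LRP1 eKO libraries of the members, Lrp1 and the named pathway genes, and 7 were singled out, where chance gives about 4.3. WT replicate 4 accounted for 6 of the 7. It was the lowest WT library for Ccng1 (gap share 0.933), Trp53inp1 (0.968), Ccnd1 (0.903), Ccnd2 (0.871) and Perp (0.957), and the highest for Cdk4 (0.846). For these 6 genes it lay on the far side of the other WT libraries from LRP1 eKO. LRP1 eKO replicate 4 was the highest of its group for Rrm2b (0.855). WT replicate 4 also had the highest skeletal muscle sum, 76.1, and the lowest macrophage, endothelial and stellate cell sums of the WT libraries, and the part of these in its values was not tested.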

How the results depend on the processing

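Over 18 alternatives with a test, Cdkn1a, Cdkn1b, Cdkn2a, Cdkn2c, Mdm2 and Ccng1 kept their direction and their call. Trp53inp1 lost its call with no filter on low signals (limma adjusted p = 0.087), as did Cdk6, Ccne2, Mdm4, Hipk2, Btg2, Perp and Bak1 of the named pathway genes (adjusted p between 0.0501 and 0.15). With array weights 5 members were lower, as Trp53 (log2 fold change -0.16, adjusted p = 0.0098) and Cdkn2b (-0.11, 0.038) were added, and Trp53 also passed after centring on a trimmed mean (-0.14, 0.047) and without WT replicate 4 and LRP1 eKO replicate 2 (-0.17, 0.024). At a 1.5-fold threshold 2 members passed, where 0 passed at 2-fold. Bax reversed without WT replicate 3 (-0.016) and without LRP1 eKO replicate 2 (-0.0060), and ranged from -0.016 to 0.060 when single libraries were left out. Pmaip1 reversed without LRP1 eKO replicate 1 (0.019), with a range of -0.10 to 0.019. Of the other pathway genes, 17 were higher, 10 with no filter (the cause was not tested), and 10 to 17 when each library was left out in turn, the fewest without LRP1 eKO replicate 4. With the replicate number as a block, 4 members were higher and 3 lower, 4185 genes were called in place of 4690, and Aen and Rfwd2 lost their calls (adjusted p = 0.062 and 0.12). Whether the numbers pair the samples is not given in the sources used here. Deviations of libraries with the same number correlated at -0.0856, -0.130, 0.178 and 0.0378. These values cannot decide it, since libraries with unlike numbers were not set beside them. Rfwd2 also lost its call with a pseudocount of 5 (0.051), limma without trend (0.053), robust limma (0.057), centring on a trimmed mean (0.055), and without WT replicate 4 and LRP1 eKO replicate 2 (0.053). Because the depth is unknown, counting error could not be set beside the spread of low signals such as those of Cdkn2c and Cdkn1c.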
